A study of Mus musculus with 2 samples.

Results

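Replication-dependent histone genes supply the linker histone H1 and the core histones H2A, H2B, H3 and H4 that package newly made DNA. Their members were taken as every gene of the deposited annotation whose symbol begins with Hist1h, Hist2h, Hist3h or Hist4h, which gave 67 of 32285 listed genes. These were 6 linker genes, 18 H2A, 18 H2B, 12 H3 and 13 H4 genes. Of the 67, 53 had at least 50 UMIs (unique molecular identifiers, each standing for 1 captured transcript) over both libraries and are called measured here. In all, 8 further members had 1 to 49 UMIs (Hist1h2bf, Hist1h2br, Hist1h2aa, Hist1h2ad, Hist2h2ab, Hist1h2bq, Hist1h2ba and Hist1h1t), and 6 had none (Hist2h2bb, Hist2h2aa1, Hist2h2aa2, Hist3h2a, Hist2h3b and Hist1h4b). Each of the 6 genes without a UMI lies wholly inside another gene of the annotation.

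As background, core histones form the octamer around which DNA is wrapped, and linker histones bind where DNA enters and leaves it. The genes of this family are transcribed mainly while DNA is being copied, and most of their mRNAs end in a conserved stem-loop in place of a poly(A) tail. The stem-loop is bound by SLBP, the stem-loop binding protein, which directs the maturation, translation and decay of these mRNAs. Replication-independent variants such as H3f3a, H3f3b and H2afz are encoded elsewhere, carry poly(A) tails and are also made outside S phase.

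Cells came from subcutaneous 4T1 tumours (4T1 is a mouse mammary carcinoma line) grown in mice whose strain the labels write as C57BL/c. The treated library came from tumours given phototherapy with AIE COF, a preparation of covalent organic frameworks, and the control library from tumours given PBS, both collected at day 7. The labels do not give the age or sex of the mice, how many were pooled, or whether the control tumours were lit. With 1 library per condition no difference between them could be tested: the 95% intervals below cover counting error only, and p-values are not given. A 3' kit was used, and how completely it captured transcripts without a poly(A) tail was not tested.

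The AIE COF library held 8619 kept cells with a median of 3870 UMIs, and the PBS library held 7864 with a median of 6318. They contained 130754 and 215715 UMIs of the histone genes. Cells were clustered without these genes and named from marker lists as T-like, B-like, macrophage-like and monocyte-like, while 4 clusters with almost no Ptprc, the pan-leukocyte marker, and high depth were grouped as the Ptprc-low class. The Ptprc-low class went against the label of an epithelial carcinoma line: 7 epithelial markers summed to 1.49 CPM (UMIs scaled to a common total) in the AIE COF library and 1.53 CPM in the PBS library, Cdh1 being at 0.57 and 0.63 CPM. Of 8 fibroblast markers, Dcn was at 1500 and 1767 CPM, Col3a1 at 1421 and 1662 CPM and Col1a1 at 190 and 171 CPM, while the other 5 ranged down to Lum at 5.13 and 3.82 CPM. The class is therefore given no cell type name. It made up 29.1% of the treated and 37.4% of the PBS cells, the T-like class 18.0% and 8.83%, and the B-like class 13.9% and 4.64%. A further 3 unnamed clusters with little Ptprc were too shallow for that class by a depth threshold set after the data had been seen, and held 9.64% and 21.6% of the cells.

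The stem-loop is what sets these mRNAs apart, so its sequence is shown for genes that carry much of the signal. Each line gives the DNA form of 26 bases read in the 3' UTR of the GENCODE transcript, 5′ to 3′, with the stem-loop of 16 bases in capitals.
Hist1h1e: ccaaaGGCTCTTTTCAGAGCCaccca
Hist1h1c: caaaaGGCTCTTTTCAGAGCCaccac
Hist1h2ae: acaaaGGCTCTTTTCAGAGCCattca
Hist2h2ac: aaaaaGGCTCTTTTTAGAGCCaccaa
Hist1h2bj: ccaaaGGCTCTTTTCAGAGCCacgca
Hist1h3c: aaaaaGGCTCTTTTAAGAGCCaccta
Hist1h4d: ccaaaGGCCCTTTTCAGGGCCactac
Hist1h4i: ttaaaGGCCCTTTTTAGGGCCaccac
The 16-base stem-loop was found in 44 members, in 6 versions. The version of Hist1h1e was shared by 26 members, among them Hist1h1c, Hist1h2ae and Hist1h2bj. Hist1h4d shared its version with 6 other H4 genes, that of Hist1h3c occurred in 6 members, that of Hist1h4i in 2, and Hist2h2ac was alone in its own.

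In the annotated transcripts, 31 members had a stem-loop and no poly(A) signal at the modelled end, and they held 50.8% of the histone UMIs. Another 17 members ended at a poly(A) signal, 13 of them downstream of a stem-loop, and held 25.8%. For 15 members, Hist1h1b among them, no 3' UTR was modelled (17.0% of UMIs), and 4 members, Hist1h2bc among them, showed neither feature (6.37%). The members sit close together, 54 of them on chromosome 13 between positions 21715763 and 23934851 (GRCm38), 10 on chromosome 3, 2 on chromosome 11 and 1 on chromosome 6. Only 10 members had at least 90% of their 60-base words unique to the gene, and 8 had under 10%, so counts of near-identical copies are uncertain. Hist1h2be overlaps the 3' end of Hist1h1e on the same strand, and their UMIs cannot be told apart where they overlap.

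Promoters are shown for 3 linker genes because they span the range of cycling-to-resting ratios among the linker genes in the Ptprc-low class, given further on. Each line is the 250 bases before the annotated start (RefSeq, GRCm38.p6), 5′ to 3′, with every match to the motifs named below, on either strand, in capitals.
Hist1h1b, chr13:21780626-21780875, minus strand: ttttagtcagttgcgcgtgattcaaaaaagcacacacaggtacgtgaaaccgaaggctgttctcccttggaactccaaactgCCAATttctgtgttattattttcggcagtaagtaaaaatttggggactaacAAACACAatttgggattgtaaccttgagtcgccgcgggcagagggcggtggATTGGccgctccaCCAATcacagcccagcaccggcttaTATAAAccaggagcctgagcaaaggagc
Hist1h1e, chr13:23622559-23622808, minus strand: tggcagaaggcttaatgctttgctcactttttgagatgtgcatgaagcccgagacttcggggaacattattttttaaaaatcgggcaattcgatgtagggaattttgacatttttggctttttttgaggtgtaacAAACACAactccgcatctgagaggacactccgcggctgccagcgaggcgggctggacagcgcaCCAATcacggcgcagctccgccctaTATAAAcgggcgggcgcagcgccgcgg
Hist1h1c, chr13:23738557-23738806, plus strand: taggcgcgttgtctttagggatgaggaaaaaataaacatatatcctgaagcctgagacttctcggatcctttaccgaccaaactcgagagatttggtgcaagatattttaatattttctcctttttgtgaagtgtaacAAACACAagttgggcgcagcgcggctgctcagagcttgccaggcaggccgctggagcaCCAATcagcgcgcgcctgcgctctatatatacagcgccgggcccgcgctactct
All 3 held CCAAT and AAACACA, while TATAAA was found in Hist1h1b and Hist1h1e and not, in these letters, in Hist1h1c. Over the 62 members matched to a RefSeq promoter (250 bases before to 50 bases after the start, both strands searched), CCAAT occurred in 53 (85.5%, against 37.4% of 32851 promoters). TATAAA occurred in 35 (56.5%, against 13.6%), and ATTTGCAT, the octamer motif, in 13 (21%, against 1.74%), which were 7 H2A and 6 H2B genes. AAACACA occurred in 9 (14.5%, against 7.18%), 5 of them among the 6 linker genes, and CCAAT was in only 3 of the 12 H4 promoters. A match is a description of these letters and not a bound site.

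Histone UMIs were a smaller part of the transcriptome in the AIE COF library than in the PBS library. Summed over all members the level was 1282 CPM after phototherapy and 1704 CPM with PBS, a log2 ratio of -0.41 (95% interval -0.42 to -0.40). Linker histones stood at 474 and 684 CPM (log2 -0.53) and core histones at 808 and 1020 CPM (log2 -0.34). The types were not alike. Among core types H2A had the lowest ratio, at 245 against 364 CPM (log2 -0.57), followed by H2B (log2 -0.27) and H4 (374 against 434 CPM, log2 -0.21), whereas H3 was close to even at 42.4 and 45.0 CPM (log2 -0.09, interval -0.14 to -0.03). The share of histone UMIs that came from linker genes was 37.0% (36.7 to 37.2) in the AIE COF library and 40.2% (39.9 to 40.4) in the PBS library. Leaving Hist1h1e out brought both shares to 22.8% and 23.1%.

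Among the linker genes, Hist1h1e (H1.4, GRCm38 chr13:23620629-23622558, minus strand) gave the most UMIs, 20.7% of the family's total. It stood at 235 CPM in the AIE COF library and 378 CPM in the PBS library (log2 -0.68, -0.70 to -0.66). Hist1h1b (H1.5, chr13:21779883-21780625, minus strand) was at 176 and 231 CPM, log2 -0.40. Both of these main linker genes were therefore lower with treatment, Hist1h1e past the 1.5-fold threshold used here. Hist1h1d (H1.3) was also past it at 6.83 and 10.3 CPM, log2 -0.59. Hist1h1c (H1.2, chr13:23738808-23740367, plus strand) differed less, at 54.2 and 63.0 CPM (log2 -0.22), and Hist1h1a (H1.1) was even at 1.89 and 1.87 CPM. The testis linker gene Hist1h1t had 1 UMI in all.

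Among H2A genes, Hist1h2ae (chr13:23570517-23571220, minus strand) was at 134 CPM after phototherapy and 204 CPM with PBS (log2 -0.60), and Hist2h2ac on chromosome 3 at 51.1 and 81.2 CPM (log2 -0.67). Hist1h2ab was at 13.8 and 22.4 CPM (log2 -0.69), the lowest ratio of the 53 measured members. Hist1h2ag (log2 -0.36) and Hist1h2an (log2 -0.50) lay in the same direction. The leading H2A genes were thus all lower in the AIE COF library, 3 of them past 1.5-fold. Of the H2B genes, Hist1h2bc (chr13:23684199-23692908, plus strand) was at 75.7 and 104 CPM (log2 -0.45), while Hist1h2bj was higher with treatment at 29.8 and 26.1 CPM (log2 0.19, 0.12 to 0.26). Hist1h2bg was at log2 -0.40, and Hist1h2bk and Hist1h2bm were near even at log2 -0.06 and -0.05.

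H3 genes were few in UMIs. Hist1h3c was at 14.4 and 12.6 CPM (log2 0.19), and Hist1h3b, past the threshold in the other direction, at 2.04 and 3.22 CPM (log2 -0.66). Hist1h3e, Hist1h3i and Hist1h3h had log2 ratios of -0.18, -0.10 and 0.13. H3 members therefore lay on both sides of 0. In the H4 group, Hist1h4d (chr13:23581598-23582735, plus strand) was at 202 and 254 CPM (log2 -0.33), and Hist1h4i (chr13:22040636-22041362, minus strand) was level at 131 and 132 CPM (log2 -0.01, -0.04 to 0.02). Hist1h4c stood at log2 -0.39, Hist1h4h at -0.20 and Hist1h4n at 0.16. H4 genes encode the same protein, and of the leading pair only Hist1h4d had an interval below 0.

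Of the 53 measured members, 6 were at least 1.5-fold lower after phototherapy (11.3%), against 4.94% of the 15638 genes measured, and 0 were at least 1.5-fold higher, against 8.66%. They were Hist1h1e, Hist1h1d, Hist1h2ae, Hist2h2ac, Hist1h2ab and Hist1h3b. Below 0 were 43 members and above 0 were 10, and their median log2 ratio was -0.22, against 0.01 over all genes. The count of lower members depends on weighting: it was 32 with equal weight per cell, 11 with thinned cells and 10 with no minimum of UMIs. The share of all genes was not counted under these alternatives, so these counts cannot be set beside the 4.94%. In the comparison as first given, 2 of 5 linker genes, 3 of 12 H2A genes and 1 of 11 H3 genes were past the threshold, with none of 13 H2B or 12 H4 genes. The 2 libraries differ in their make-up of cells and in depth, so the levels were compared within classes next.

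**Figure D1:**
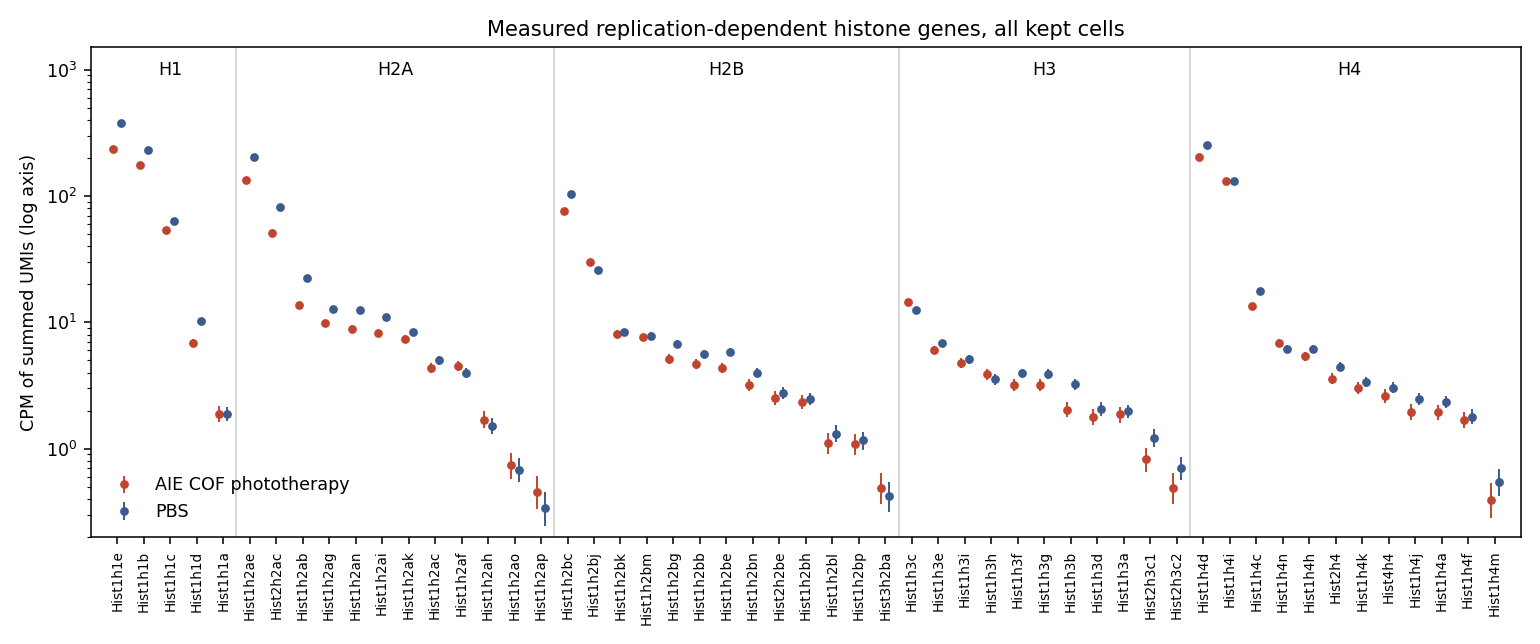
Level of each measured replication-dependent histone gene in all kept cells, in CPM of summed UMIs on a log axis, by histone type. Points are the 2 libraries and bars the 95% counting intervals; Hist1h1e, at 235 against 378 CPM, is lower in the AIE COF library and Hist1h4i, at 131 against 132 CPM, is level.

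Within the Ptprc-low class, which held most histone UMIs, the sum was 1413 CPM after phototherapy and 1765 CPM with PBS (log2 -0.32, -0.33 to -0.31). Macrophage-like cells were at 734 and 954 CPM (log2 -0.38), B-like cells at 435 and 653 CPM (log2 -0.58) and monocyte-like cells at 284 and 527 CPM (log2 -0.89). T-like cells were at 700 and 1390 CPM, log2 -0.99 (-1.07 to -0.91). All 5 classes thus lay below 0. The monocyte-like class differed in make-up between the libraries: 8 neutrophil markers summed to 931 CPM with treatment (1 of them at 0) and 101 CPM with PBS (4 at 0), and their part in its ratio was not tested. The 4 Ptprc-low clusters taken one by one were at log2 -0.38, -0.40, -0.43 and -0.18. The proliferation lists used to find cycling cells did not move this way in the Ptprc-low class: the 39 S-phase genes summed to 3350 and 3118 CPM and the 41 G2/M genes to 5232 and 4981 CPM. In T-like cells both lists were lower with treatment, at 1833 against 2660 CPM and 1567 against 2785 CPM, and their part in the histone difference was not tested.

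The T-like class was made of different mixtures of clusters in the 2 libraries. Its cluster 5 had 1220 AIE COF and 314 PBS cells and a histone log2 ratio of -1.12, and cluster 13, with 113 and 250 cells, was at 1605 and 1924 CPM (log2 -0.26). Cluster 6, with 222 and 130 cells, went the other way, at 1314 and 957 CPM (log2 0.46, 0.27 to 0.65). A single direction therefore did not hold across T-like clusters. In cycling cells alone, cluster 5 was at log2 -1.26, cluster 13 at -0.48 and cluster 6 at 0.73, the last on 71 and 48 cells. The G2/M list was also higher with treatment in cluster 6, at 3537 against 2227 CPM, and lower in cluster 5, at 643 against 1248 CPM.

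The types kept different orders in each class, as the plot of types by class shows. In the Ptprc-low class linker histones were at log2 -0.46 and core histones at -0.23, with H2A at -0.47, H2B at -0.20, H4 at -0.11 and H3 at 0.08 (0.02 to 0.15). In macrophage-like cells the order was turned: linker histones were at -0.25 and core histones at -0.46, and H3 was the lowest type at -0.85. T-like cells had linker histones at -1.14 and core histones at -0.87, and B-like cells -0.78 and -0.44. The difference between classes was not tested.

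**Figure D2:**
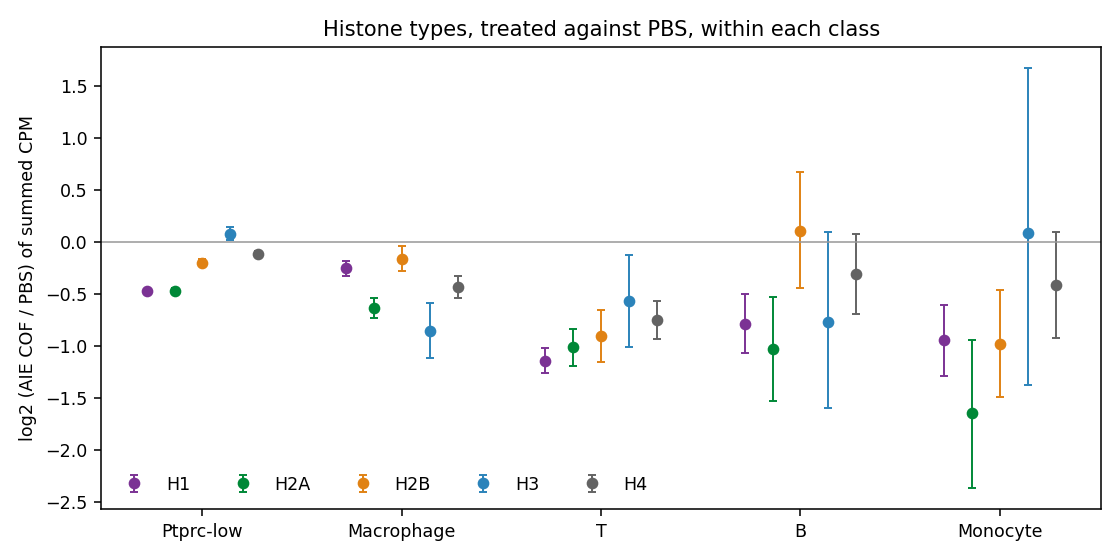
Log2 ratio of summed CPM, AIE COF over PBS, for each histone type within 5 classes; bars are 95% counting intervals and the line at 0 marks equal levels. H1 and H2A lie below 0 in every class drawn, while H3 lies above 0 in the Ptprc-low class (0.08) and at -0.85 in the Macrophage class.

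The counts of single members did not follow the sums by type. In the Ptprc-low class 3 of 51 measured members were at least 1.5-fold lower, against 4.82% of 14140 genes, and 1 was higher, against 4.36%. The lower ones were Hist1h1e (264 and 399 CPM, log2 -0.59), Hist2h3c1 (0.76 and 1.20 CPM, log2 -0.67) and Hist2h3c2 (0.48 and 0.74 CPM, log2 -0.65), and the higher one was Hist1h2ap (0.53 and 0.29 CPM, log2 0.84, 0.13 to 1.57), an H2A gene. Of the 51, 31 were below 0 and 20 above. These shares are close to those of all genes, and beyond Hist1h1e they rest on few UMIs. Hist1h3c (16.4 and 12.6 CPM, log2 0.38), Hist1h2bj (34.6 and 27.5 CPM, log2 0.33) and Hist1h4i (155 and 143 CPM, log2 0.11) were higher with treatment there, their intervals all above 0. Hist1h4d, by contrast, was at 230 and 273 CPM (log2 -0.25).

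In macrophage-like cells 14 of 28 measured members were at least 1.5-fold lower, against 5.9% of 10318 genes, and 0 were higher, against 3.93%. Hist1h2ae was at 103 and 159 CPM (log2 -0.63), Hist1h1e at 105 and 159 CPM (log2 -0.61) and Hist1h1d at 5.83 and 14.1 CPM (log2 -1.27). The other 11 were Hist1h2be (log2 -1.47), Hist1h2ac (-1.17), Hist1h2an (-1.05), Hist1h2ag (-0.83), Hist1h2bg (-0.70), Hist1h3d (-1.62), Hist1h3f (-0.91), Hist1h3c (-0.84), Hist2h4 (-1.26), Hist4h4 (-0.90) and Hist1h4c (-0.59). Apart from Hist1h2ae and Hist1h1e these were genes of few UMIs. Hist1h1b, at 118 and 120 CPM, and Hist1h2bc, at 93.6 and 92.4 CPM, were near even, and Hist1h1c was higher at 59.2 and 48.9 CPM (log2 0.28, 0.09 to 0.46).

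In T-like cells all 12 measured members were at least 1.5-fold lower, against 12.2% of 7508 genes lower and 8.04% higher. Hist1h1e was at 124 and 302 CPM (log2 -1.28), Hist1h1b at 114 and 234 CPM (log2 -1.04), Hist1h2ae at 95 and 181 CPM (log2 -0.93) and Hist1h4d at 100.2 and 173 CPM (log2 -0.78). The others were Hist1h1d (log2 -1.30), Hist1h1c (-0.96), Hist2h2ac (-1.09), Hist1h2ab (-1.69), Hist1h2bc (-1.25), Hist1h2bj (-0.76), Hist1h4i (-0.60) and Hist1h4c (-0.68). The intervals of Hist1h2bj and Hist1h4c reached past 0. Linker and core members therefore lay together on the low side in this class, whose cluster mixture and proliferation lists differed as given above.

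Cells were then divided by cycle. Each cell was thinned to 1000 UMIs and called cycling with at least 3 UMIs of the S and G2/M lists (80 genes, none of them a histone of this family) or resting with 0. Among cells of at least 1000 UMIs (781 of 1201 B-like cells in the AIE COF library), cycling cells made up 78.9% of the AIE COF and 72.6% of the PBS Ptprc-low cells, 45.3% and 38.4% of macrophage-like cells, 29.9% and 38.3% of T-like cells and 22.0% and 25.0% of B-like cells. Monocyte-like cells had 17.2% and 17.4%. In B-like cells the S and G2/M lists summed to only 1121 and 770 CPM with treatment and 1173 and 781 CPM with PBS. In monocyte-like cells they summed to 744 and 575 CPM and to 816 and 686 CPM. At such levels sampling of 1000 UMIs can by itself give 3 list UMIs. Whether the B-like and monocyte-like cells called cycling were in cycle was not tested. The share of cycling cells was thus higher with treatment in the Ptprc-low and macrophage-like classes, where histone levels were lower.

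In summed CPM, histone UMIs were more abundant in cycling cells of the 4 named classes with enough cells of both states in both libraries. In the Ptprc-low class they stood at 1579 CPM in cycling and 487 CPM in resting cells of the AIE COF library (log2 1.70), and at 2061 and 568 CPM in the PBS library (log2 1.86). Macrophage-like cells showed a wider gap, 1132 against 197 CPM (log2 2.52) and 1634 against 377 CPM (log2 2.12). T-like cells were at 1482 and 214 CPM (log2 2.79) with treatment and 2360 and 354 CPM (log2 2.74) with PBS. B-like cells had the narrowest gap, 569 against 278 CPM (log2 1.03) and 1087 against 562 CPM (log2 0.95). Their shares of cells with a histone UMI at equal depth, given below, were close in both states. The PBS library was the higher one in cycling cells of these 4 classes. The treated-to-PBS ratio of cells called cycling was log2 -0.38 in the Ptprc-low class, -0.53 in macrophage-like, -0.67 in T-like and -0.93 in B-like cells. The B-like value carries the limit on cycling calls given above. The ratio of resting cells was -0.22, -0.94, -0.73 and -1.01, with -1.43 in monocyte-like cells. Resting levels outside the Ptprc-low class were not told apart from free RNA, described next. By the shares of cells given below, neither was that of the Ptprc-low class in the PBS library. No difference in expression is read from the resting ratios. The resting B-like cells, used below as a gauge of background, are themselves among these ratios.

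**Figure D3:**
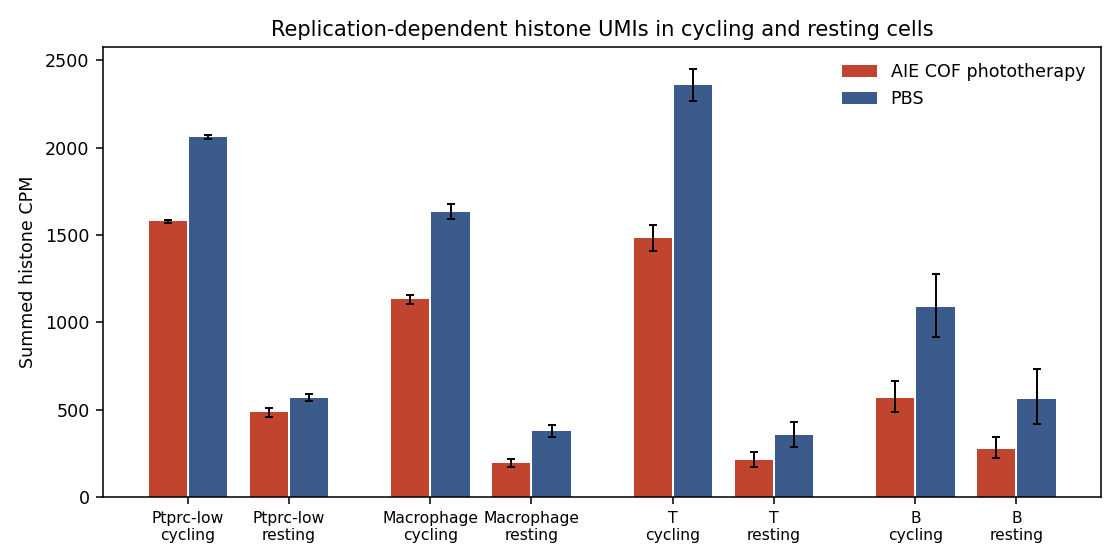
Summed CPM of the replication-dependent histone genes in cycling and resting cells of 4 classes in both libraries; bars start at 0 and error bars are 95% counting intervals. Cycling cells are above resting cells in each class, from 569 against 278 CPM (B, AIE COF) to 2360 against 354 CPM (T, PBS), and the PBS bar is the higher one in each pair.

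Free RNA from broken cells can add UMIs to any class, and no class can be taken to lack histone mRNA. As a gauge, Dcn and Col3a1, which lead in the Ptprc-low class, stood in the other 4 classes at between 3.0% and 7.44% of their Ptprc-low level. Hist1h4i stood at 10% to 17.0% of its Ptprc-low level in those classes, and Hist1h1e at 15.6% to 75.6%. Both genes were therefore above the gauge in each class, and Hist1h1e stood higher than Hist1h4i within each class and library. Free RNA's part in the levels of resting and shallow cells was not tested. Median depth ran from 1156 UMIs in B-like cells of the AIE COF library to 33197 in Ptprc-low cells of the PBS library.

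Shares of cells were compared at equal depth. After thinning to 1000 UMIs, 42.0% of AIE COF cells and 54.6% of PBS cells held at least 1 histone UMI (66.8% and 82.7% before thinning, with 1154 and 812 cells too shallow and left out). Among Ptprc-low cells the shares were 64.5% and 68.8% when cycling and 32.1% and 39.4% when resting. Cycling T-like cells had 34.2% and 50.8%, and resting ones 21.6% and 32.4%. Cycling B-like cells had 30.2% and 43.4%, close to the resting ones given next. Resting B-like cells, with median depths of 1383 and 1615 UMIs, had 27.4% and 42.6%, and shares at or below these were not told apart from background. These cells may hold histone mRNA of their own, so their shares are a gauge and not a measured background. This held for the resting T-like shares, the resting macrophage-like shares (20.5% and 32.6%) and the resting Ptprc-low share of the PBS library. No order of the libraries is read from them. The make-up of the UMIs differed: Hist1h2bc gave 25.6% and 30.3% in resting Ptprc-low cells but 9.64% and 3.77% (8 and 2 UMIs) in resting B-like cells. The reason was not tested.

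Not all members followed the cycle. Of those measured in the Ptprc-low class, 37 of 47 in the AIE COF library and 41 of 50 in the PBS library were at least 1.5-fold higher in cycling cells, against 19.8% and 18.4% of all genes measured. The median log2 ratio of the members was 1.44 and 1.26, against 0.02 and 0.00 over all genes. The widest gap belonged to a linker gene, Hist1h1b, at 231 CPM in cycling and 4.72 CPM in resting cells with treatment (log2 5.62, 4.87 to 6.49) and 306 and 9.19 CPM with PBS (log2 5.06). Hist1h2ae stood at 171 and 12.1 CPM (log2 3.82) and at 258 and 16.3 CPM (log2 3.99). Hist2h2ac (log2 4.87 and 3.93), Hist1h2ab (3.75 and 3.88) and Hist1h4d (2.89 and 3.22) also had wide gaps. So did Hist1h2af (4.06 and 4.57) and, with PBS, Hist1h3b (4.25), each on 1 resting UMI in those libraries. In the AIE COF library 4 members without a resting UMI entered these counts at the floor of 3 counts. For each of these genes the resting level was a small part of the cycling level. Hist1h1e was less tied to the cycle, at 304 and 65.1 CPM (log2 2.22) and at 479 and 82.9 CPM (log2 2.53), and Hist1h4i less still (log2 1.26 and 0.98).

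Some members of the Ptprc-low class were not higher in cycling cells, and of these Hist1h2bc and Hist1h1c had by far the most resting UMIs. Hist1h2bc was lower in cycling than in resting cells, at 60.7 and 124 CPM with treatment (log2 -1.04, -1.19 to -0.88) and at 81.2 and 172 CPM with PBS (log2 -1.09, -1.19 to -0.98). Hist1h1c was at 47.7 and 76.2 CPM in the AIE COF library (log2 -0.68, -0.87 to -0.48) and level in the PBS library, at 58.6 and 56.3 CPM (log2 0.06, -0.11 to 0.23). In resting cells these 2 genes were therefore above their cycling level or level with it within the counting interval. Hist2h3c1, with 11 resting UMIs, was also lower in cycling cells of the PBS library (log2 -1.36). Below 0 with few resting UMIs were further Hist1h4j (log2 -0.13 and -0.46), Hist1h4k (-0.02, AIE COF) and Hist1h2ac (-0.24, PBS). In the AIE COF library 1 H2A gene was also just below 0 (log2 -0.09). The H2B sum, to which Hist1h2bc gave 60.7 of 144 CPM in cycling and 124 of 154 CPM in resting cells of the AIE COF library, was at log2 -0.09 and -0.36, whereas H1 was at 1.99 and 2.51, H2A at 3.44 and 3.28, H3 at 1.16 and 1.05 and H4 at 1.85 and 1.94.

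**Figure D4:**
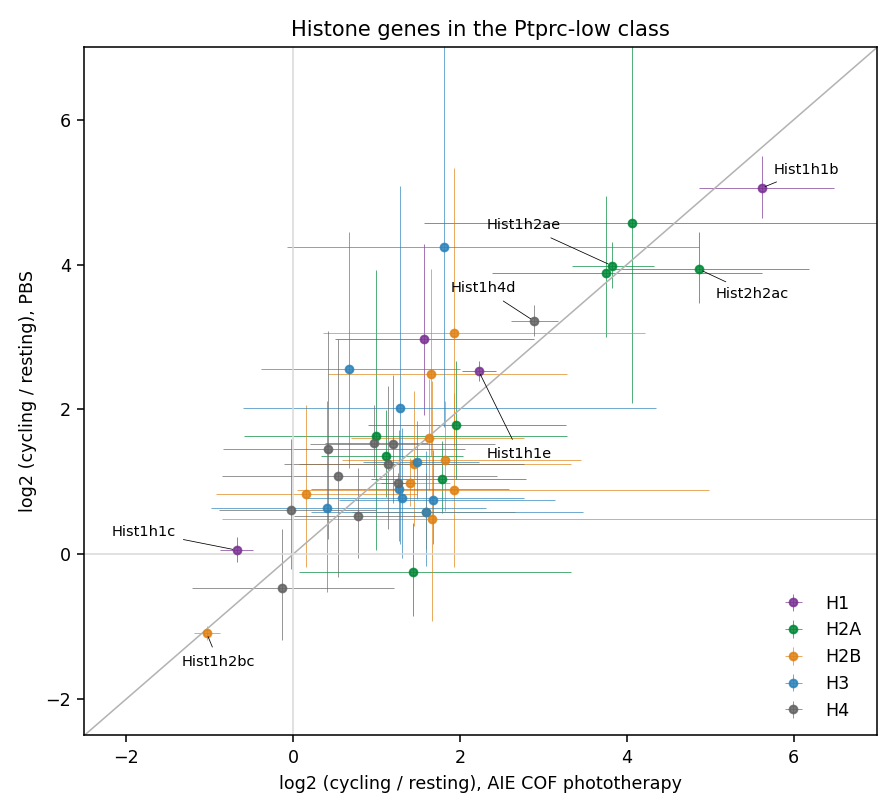
Log2 ratio of cycling over resting CPM in the Ptprc-low class for the 43 measured members with resting UMIs in both libraries, AIE COF on the horizontal and PBS on the vertical axis. Bars are 95% counting intervals, cut where they leave the axes; 38 members lie above 0 in both libraries, Hist1h1b is highest at 5.62 and 5.06 and Hist1h2bc lies at -1.04 and -1.09.

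The make-up of the histone UMIs differed between the states of the Ptprc-low class. Hist1h2bc made up 3.84% (AIE COF) and 3.94% (PBS) of histone UMIs in cycling cells, and 25.6% and 30.3% in resting cells. Hist1h1c went from 3.02% and 2.84% to 15.7% and 9.90%. Hist1h1b did the reverse, from 14.7% and 14.8% to 0.97% and 1.62%, and so did Hist1h2ae, from 10.8% and 12.5% to 2.49% and 2.86%. Within linker UMIs alone, Hist1h1b gave 39.2% and 35.8% in cycling cells but 3.18% and 6.12% in resting cells, where Hist1h1c gave 51.4% and 37.5%. Hist1h1e kept a large part of the linker UMIs in both states, 51.5% and 56.1% when cycling and 43.9% and 55.2% when resting. The linker share of all histone UMIs was 37.4% and 41.5% in cycling and 30.5% and 26.4% in resting Ptprc-low cells.

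**Figure D5:**
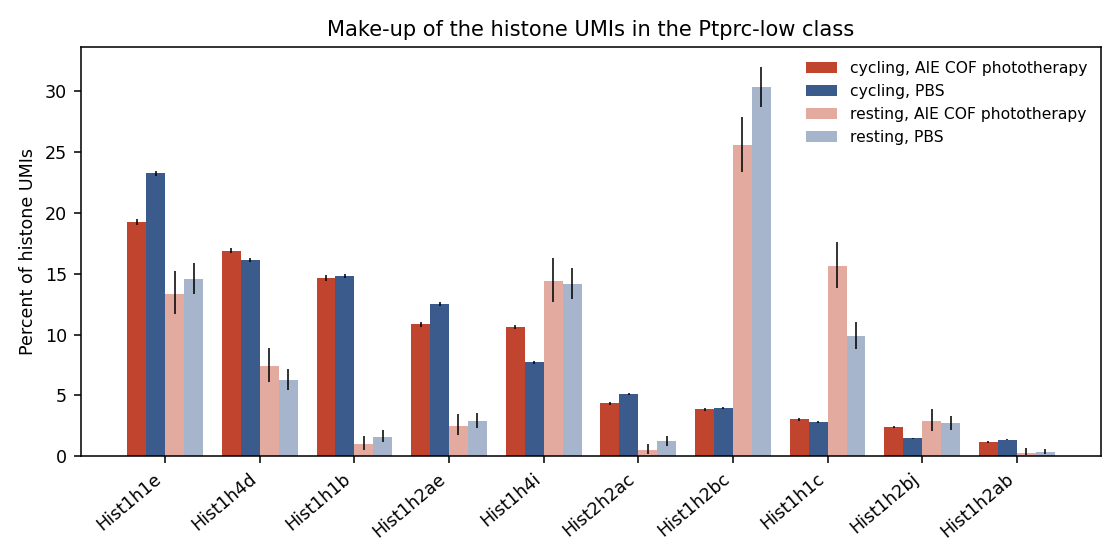
Percent of all replication-dependent histone UMIs given by each of 10 members in cycling (dark) and resting (pale) Ptprc-low cells of both libraries, with 95% exact binomial intervals as bars; the vertical axis starts at 0. Hist1h2bc is at 3.84% and 3.94% in cycling and 25.6% and 30.3% in resting cells, and Hist1h1b at 14.7% and 14.8% against 0.97% and 1.62%.

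Macrophage-like and T-like cells showed the cycle-linked genes too. In macrophage-like cells 12 of 14 measured members (AIE COF) and 12 of 15 (PBS) were at least 1.5-fold higher when cycling, against 15.6% and 13.4% of all genes. In T-like cells it was 7 of 7 in both libraries, against 18.7% and 20.9%. Hist1h1b again had wide gaps, log2 5.42 and 4.32 in macrophage-like and 5.19 and 5.10 in T-like cells. Hist1h2bc, lower in cycling Ptprc-low cells, was higher in cycling macrophage-like cells (log2 1.37 and 0.72) and T-like cells (2.85 and 2.0). Hist1h1c was at log2 1.09 and 0.35 (-0.09 to 0.81) in macrophage-like and 1.19 and 0.79 in T-like cells, so that in macrophage-like cells of the PBS library its interval reached past 0. The difference between classes was not tested. In resting macrophage-like cells Hist1h2bc still made up 22.5% and 18.9% of histone UMIs and Hist1h1c 16.5% and 11.7%.

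Restricting the comparison of libraries to cycling Ptprc-low cells left the linker histones lower, at 591 and 855 CPM (log2 -0.53), and core histones at 988 and 1205 CPM (log2 -0.29). In resting Ptprc-low cells linker histones were at 148 and 150 CPM (log2 -0.02, -0.19 to 0.15), and core histones were at 338 and 418 CPM (log2 -0.31). The resting share of the PBS library was not told apart from background, so no order of the libraries is read from these resting values. In cycling cells 8 of 51 measured members were at least 1.5-fold lower, against 4.55% of 13722 genes, and 1, Hist1h2ap (log2 0.77, 0.06 to 1.5), was higher, against 4.15%. The 8 were Hist1h1e (304 and 479 CPM, log2 -0.66), Hist1h1d (-0.59), Hist1h1a (-0.68), Hist1h2ae (-0.59), Hist2h2ac (-0.61), Hist1h2ab (-0.64), Hist1h3b (-0.62) and Hist2h3c2 (-1.01). Among the 5 linker genes the median was log2 -0.59, against -0.13 over all 51 members. H3, at log2 0.04, was level in these cells.

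Cells deep enough for 3000 UMIs were placed in an S band or a G2M band, according to which list had at least 3 UMIs and at least 2 times those of the other, or in a band that held both or a low band with at most 1. Over the whole library histone levels were lowest in the low band, at 345 (AIE COF) and 460 CPM (PBS), and intermediate in the S band, at 850 and 1026 CPM. They were higher in the G2M band, at 1400 and 1957 CPM, and highest in cells with both lists, at 1704 and 2208 CPM. The S band was therefore below the G2M band, by log2 -0.72 and -0.93. These sums mix classes: in the AIE COF library macrophage-like cells were 405 of 1091 S-band but 230 of 1261 G2M-band cells. Within classes the ratio was log2 -0.45 and -0.89 (Ptprc-low) and -1.87 and -2.55 (macrophage-like). S-band macrophage-like cells stood at 324 and 368 CPM. Whether the bands match the phases they are named for was not tested, so no phase of highest histone level is read from them. In the Ptprc-low class 22 of 44 measured members (AIE COF) and 30 of 46 (PBS) were at least 1.5-fold lower in the S band, against 4.73% and 5.43% of all genes. Hist1h2ac alone exceeded 0 in the AIE COF library. The gap was smaller for Hist1h1b with treatment, at 145 and 162 CPM (log2 -0.16), than for Hist1h4d, at 134 and 244 CPM (log2 -0.87). With PBS it was not small: Hist1h1b was at 133 and 230 CPM (log2 -0.79), Hist1h4d at 133 and 323 CPM (log2 -1.28), and all 4 measured linker genes were past 1.5-fold lower in the S band.

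Between the libraries, S-band cells of the Ptprc-low class were level, at 1027 and 1038 CPM (log2 -0.01, -0.05 to 0.02). Cells of the G2M band were not, at 1407 and 1930 CPM (log2 -0.46), nor were those with both lists, at 1713 and 2257 CPM (log2 -0.40). The low band was at 448 and 495 CPM (log2 -0.14). The level S band rests on the S list used: with a short list of 12 S genes, chosen after seeing the data, it held 40 and 65 cells and stood at 799.9 and 597 CPM, higher with treatment. The difference between bands was not tested.

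Some members had levels of their own by class. Hist1h4i was at 155 and 143 CPM in Ptprc-low cells and between 15.5 and 24.3 CPM in the other 4 classes, whereas Hist1h4d was spread more evenly, at 101 and 123 CPM in macrophage-like and 100.2 and 173 CPM in T-like cells. Hist1h1a was at 10.3 and 11.8 CPM in macrophage-like and 6.55 and 12.4 CPM in T-like cells but 0.46 and 0.69 CPM in Ptprc-low cells. Hist3h2ba was at 5.24 and 7.51 CPM in T-like cells, on 16 and 17 UMIs, and at 0.03 and 0.08 CPM in Ptprc-low cells, on 2 and 8 UMIs. Hist1h4m had 0.04 and 0.10 CPM in Ptprc-low cells (3 and 10 UMIs) against 3.28 and 2.65 CPM in T-like cells (10 and 6 UMIs). Among the rarer clusters, the plasma-like cells (34 and 10 cells) were at 1506 and 3871 CPM. Of the 244 histone UMIs of the PBS plasma-like cells, 225 came from 4 cycling cells, so this level rests on very few cells.

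Related genes outside this family were counted in the same way, beside the 4.94% of all genes lower and 8.66% higher. Of 10 measured replication-independent variants 1 was at least 1.5-fold lower with treatment, H2afy2 (log2 -0.64), and the most abundant were H3f3b at 2264 and 2013 CPM (log2 0.17), H3f3a at 832 and 796 CPM (log2 0.06) and H2afz at 488 and 496 CPM (log2 -0.02). None of 12 histone mRNA processing factors passed the threshold: Slbp was at 27.6 and 34.9 CPM (log2 -0.34), and Casp8ap2, Eri1 and Cpsf2 were at log2 -0.11, 0.11 and 0.08. None of 20 chaperone and deposition genes passed it either, Nap1l1, Atrx and Rbbp7 being at log2 0.10, -0.04 and 0.14. In the S and G2/M lists 0 of 39 and 0 of 41 passed, with medians of 0.01 and -0.01. Their leading genes Pcna, Top2a and Cks2 were at log2 0.26, -0.15 and 0.05.

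In cycling against resting Ptprc-low cells, 19.8% (AIE COF) and 18.4% (PBS) of all genes measured were at least 1.5-fold higher. Of the chaperone genes 15 of 20 and 13 of 20 were, led by Asf1b, which hands H3 and H4 to the replication fork, at log2 4.65 and 4.15. Slbp was at log2 1.5 and 0.91, and 4 of 11 processing factors were higher in each library. Of the variants 3 of 9 and 4 of 10 were higher, among them the centromeric Cenpa (log2 3.32 and 3.03). Early response genes that cell dissociation can induce were lower in cycling cells, with medians of log2 -0.98 and -0.93, against 0.02 and 0.00 over all genes. Between the libraries this list had Nr4a1 (log2 0.98) and Dusp1 (0.92) higher and Hspa1b (-1.73) lower with treatment, and Fos (0.20) and Jun (-0.19) inside the threshold. Its part in the histone levels was not tested.

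Across 31 units (a class and cycle state in 1 library, with at least 30 cells) the genes whose log2(CPM + 1) most resembled the summed histones, out of 11068 candidates, were Cenpf (Pearson r 0.880), Top2a (0.878), Hmgb1 (0.859), Stmn1 (0.855), Kif15 (0.852), Ezh2 (0.851), Ccnb2 (0.849), Tuba1b (0.846), Ube2c (0.845) and Aspm (0.836). Units of 1 library share depth and preparation, and states were set by lists that hold some of these genes, so the values are descriptive. Of the members themselves, each set against the other members, Hist1h1e was nearest (r 0.91), followed by Hist1h4d (0.86), Hist1h2ae (0.85) and Hist1h1b (0.84). Hist1h2bc and Hist1h1c, both at 0.38, and Hist3h2ba, at 0.04, stood apart.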

How the data were processed

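Droplet single-cell 3' RNA libraries of 2 tumour samples (1 AIE COF, 1 PBS) were analysed from the raw UMI counts per gene and barcode that the authors deposited. Reads were aligned to mm10 with STAR, per the submitters' processing notes; versions, the annotation and the handling of reads that map to several genes are not stated in the labels or files read here. Groups follow the treatment label. The members, gene lists and rules were chosen with earlier results of these data known.

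The deposited barcodes (10002 and 8962) were kept with at least 200 genes and at most 20% mitochondrial UMIs (689 and 529 failed), and 694 and 569 doublets were removed with Scrublet in scanpy 1.11.5 (Python 3.11.15). The libraries shared 39 barcodes. Total kept UMIs were 101956259 and 126614575. Cells were clustered without the members (2000 variable genes, 30 principal components, 15 neighbours, resolution 1). A cluster was named where at least 3 markers, and more than 50% of the detected ones, of a list reached 25% of their highest cluster level and 5% of its cells. A cluster under 100 CPM of Ptprc with a median of at least 10000 UMIs was called Ptprc-low; that class and its depth threshold were set after seeing the data.

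Levels are CPM of UMIs summed over the cells of a library, class and state. Exact Poisson, exact conditional binomial and Clopper-Pearson intervals (95%) cover counting error only. On simulated data the interval of the ratio held the true value for 95.5% of 15629 unchanged genes, 92% of genes raised 1.5-fold and 92.6% of genes lowered to 0.5-fold at whole-library size. Classes needed 100 cells in each library and states 30. Calls need 50 UMIs over both sides and a 1.5-fold ratio.

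Named were up to 6 linker genes and 5 genes per core type with most UMIs, every member past 1.5-fold, of related lists up to 3 with most UMIs and all past 1.5-fold, and the 10 most similar genes (at least 500 UMIs). Other members and cycle ratios were picked after their values were seen. Alternatives covered filters, doublets, weighting, thinning depth, cycle thresholds, clustering and single genes. Sequences are from RefSeq and GENCODE transcripts of GRCm38; 62 of 67 members matched a promoter.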

Additional observations from a re-analysis of the deposited data

Results flagged for a closer look

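In 4 places the treated library was higher and another class or cluster was lower. These are not the only such values, since 20 of 51 members were above 0 in the Ptprc-low class, Hist1h2bj among them. Each condition has 1 library, and the differences were not tested. Summed histone UMIs in T-like cluster 6 were at log2 0.46 (0.27 to 0.65), against negative ratios in the other T-like clusters. Of its 661 AIE COF UMIs 595 came from 71 cycling cells, and of its 359 PBS UMIs 288 came from 48. This ratio thus rests on few cells, and its interval does not cover differences between cells. Hist1h1c, the linker gene H1.2, was at log2 0.28 (0.09 to 0.46) in macrophage-like cells and lower in the Ptprc-low and T-like classes. Its lower values in B-like (54.5 and 72.7 CPM) and monocyte-like cells (69.2 and 86.1 CPM) rested on few UMIs. These were 84 and 42 UMIs in B-like and 74 and 57 in monocyte-like cells. Hist1h3c was at log2 0.38 (0.27 to 0.49) and Hist1h4i at 0.11 (0.08 to 0.15) in the Ptprc-low class, and both were lower with treatment in macrophage-like cells.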

How the results depend on the processing

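No paired analysis was possible because each condition has 1 library. No result entered in these runs changed direction. For main results, 55 values stayed within their interval or within 1.5 times the count, and 55 moved. The comparison of Ptprc-low S-band cells between the libraries was not entered. It was level with the full S list (1027 and 1038 CPM) and higher with treatment with the short list (799.9 and 597 CPM). For the whole-library ratio (-0.41), equal weight per cell gave -0.70, equal weight per class -0.57, thinned cells -0.61 and leaving out Hist1h1e -0.34. The count of members lower (6) was 32 with equal weight per cell, 10 with no minimum of UMIs and 11 with thinned cells. The count higher (0) was 1 with equal weight per cell and 1 with no minimum. Shares of all genes were not counted under these alternatives. In the Ptprc-low class (-0.32) equal cell weight gave -0.30 and thinning -0.26. In macrophage-like cells (-0.38) the stricter filter gave -0.29, equal cell weight -0.49 and clustering each library apart -0.19. In T-like cells (-0.99) thinning gave -1.10, clustering apart -1.51 and resolution 0.5 -0.61. A further 3 alternatives were chosen after seeing the data. Cycling cells alone gave -0.38 (Ptprc-low), -0.53 (macrophage-like), -0.67 (T-like) and -0.93 (B-like), the Ptprc-low clusters by number gave -0.38, -0.40, -0.43 and -0.18, and a short list of 12 S genes gave an S over G2M ratio of -1.21 (AIE COF) and -1.48 (PBS). That ratio (-0.72 and -0.93) was -0.76 and -0.99 with a band minimum of 2 UMIs, -0.59 and -0.73 with 5, and -0.85 (PBS) with doublets kept. For cycling over resting, a threshold of 5 UMIs gave 1.79 and 1.98 (Ptprc-low), 2.87 and 2.59 (macrophage-like) and 3.60 and 3.30 (T-like), and one of 2 gave 1.77 (Ptprc-low, PBS), 2.29 and 1.79 (macrophage-like) and 2.26 and 2.43 (T-like). Doublets kept gave 1.52 (Ptprc-low, AIE COF) and 2.16 (macrophage-like, AIE COF), and states from unthinned cells 2.75 and 2.39 (macrophage-like). The linker share was 35.7% and 38.3% with equal cell weight and 22.8% and 23.1% without Hist1h1e. The share of cells with a histone UMI was 27.5% and 38.7% at 500 UMIs and 61.1% and 70.8% at 2000. The cause of these moves was not tested. Cycle states set per cluster gave no value because no cluster reached the level required, and monocyte-like cells gave none under separate clustering or resolution 0.5. Depth limits resting cells most: with few resting UMIs per gene, ratios of single members have wide intervals.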
